A study of Homo sapiens with 6 samples.

Results

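The genes described here are LCK, its SRC-related kinases SRC, YES1, FYN, LYN, FGR and FRK, and CSK, the kinase that restrains them. All 8 were found by symbol among the 29744 gene symbols of the count table. LCK was chosen by its measured level in these libraries, which is higher in one resistant line, so its levels are described with no test. The other 7 were listed by name as relatives or regulator, and they are tested where their counts allow. RNA was measured in 3 cultured lines of human gastric tumour cells with 2 libraries each. HER2R is a derivative labelled resistant to HER2-TCB, and CEAR is a derivative labelled resistant to CEACAM5-TCB. HER2 is a receptor tyrosine kinase and CEACAM5 an epithelial surface glycoprotein, and the labels do not spell out TCB. The study's title speaks of resistance to therapies based on T cells. MKN45 is the established gastric cancer line both derive from, which the labels call sensitive. All 3 were kept in the same serum-containing medium with no treatment listed. HER2R has the source name MKN45-HER2, and whether that was a modified line is not said. Nor is it said whether either derivative is 1 clone, or whether the agent was present during culture.

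SRC-family kinases sit on the inner face of the plasma membrane and pass signals on from receptors and adhesion sites by phosphorylating tyrosines. Their activity is held down when CSK phosphorylates a tyrosine in their tail. LCK is best known from T cells, where it binds the coreceptors CD4 and CD8 and phosphorylates the T cell receptor complex. SRC and YES1 are widely expressed in epithelia, LYN is prominent in B and myeloid cells but is also found in carcinomas, and FRK is a more distant, mainly epithelial relative.

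LCK lies on the plus strand of chromosome 1 (32251239 to 32286165, GRCh38, GENCODE 29). RefSeq gives it starts 22856 bases apart, at 32251265 and 32274121, and a count per gene adds up transcripts from both, so the data do not say which start was used in which line. The 250 bases before each start are shown because they lie just before the RefSeq starts of LCK. GENCODE 29 lists 12 starts for LCK, and the first of these, at 32251239, lies inside the upstream window. They are chr1:32251015-32251264 for the upstream start and chr1:32273871-32274120, inside the gene's span, for the downstream start (plus strand, RefSeq, GRCh38.p14). Capitals mark AGGAAGT, which holds the GGAA core of ETS factor sites and was searched for on both strands.
LCK upstream start: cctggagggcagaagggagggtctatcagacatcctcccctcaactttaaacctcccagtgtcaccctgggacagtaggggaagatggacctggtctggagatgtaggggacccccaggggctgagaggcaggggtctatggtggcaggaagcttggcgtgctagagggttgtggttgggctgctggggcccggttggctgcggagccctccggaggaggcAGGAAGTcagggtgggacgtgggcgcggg
LCK downstream start: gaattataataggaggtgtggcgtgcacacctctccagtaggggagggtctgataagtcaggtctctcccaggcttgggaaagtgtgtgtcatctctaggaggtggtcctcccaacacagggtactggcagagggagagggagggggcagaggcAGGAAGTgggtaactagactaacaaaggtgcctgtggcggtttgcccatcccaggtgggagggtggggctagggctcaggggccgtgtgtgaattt
Each window holds the motif 1 time, on the plus strand, and 7.01% of 35116 RefSeq windows of the same length hold it on either strand. The FRK window holds it too, and the windows of FGR, FYN, CSK and YES1 do not. The motif was chosen after these sequences were seen, and a match is not evidence of binding. The upstream window has 7 CpG dinucleotides and the downstream window 3, against a median of 11 over all such windows. Of the 8 genes, 6 matched the promoter table, without SRC and LYN. YES1 has 32 CpG in its window, CSK has 4 and FRK has 2.

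Library totals ran from 39657353 to 57964246 raw counts, and 1 count was worth 0.0177 to 0.0255 CPM, the unit of level used here (counts scaled to a common library total). A line's level is given as mean ± SD (n = 2 libraries). Whether the 2 libraries were grown as separate cultures is not stated, so p-values reflect spread that may be technical. Of 14958 symbols that passed the filter on low counts, 7 were members of the set. The other, FGR, a kinase of myeloid cells, had 0 counts in all 6 libraries, which allows at most 0.0531 to 0.0765 CPM in a library (3 counts, counting error only). BLK, the B cell member of the family, also had 0 counts throughout.

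LCK itself was high in both HER2R libraries and low in all the others. It had 86.6 and 76.1 CPM in HER2R, 22.5 and 14.5 CPM in CEAR, and 24.6 and 12.0 CPM in MKN45. The raw counts behind these were 3398 and 2983 in HER2R, 934 and 644 in CEAR, and 1389 and 526 in MKN45. The lowest HER2R library stood above the highest library of either other line, while the CEAR libraries lay inside the range of the MKN45 libraries. In line means LCK was 81.3 ± 7.41 CPM in HER2R, 18.5 ± 5.68 CPM in CEAR and 18.3 ± 8.94 CPM in MKN45. The fitted log2 fold change was 2.15 for HER2R against MKN45, 0.011 for CEAR against MKN45 and 2.14 for HER2R against CEAR, given as a description. The first and last of these share the HER2R libraries and are not independent. Among all tested genes, 345 (2.31%) had a larger log2 fold change in HER2R against MKN45, a place that follows in part from how LCK was chosen.

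LCK varied widely within CEAR and within MKN45, and in all 3 lines it was higher in the library numbered 1. Library 1 exceeded library 2 by 1.14 times in HER2R, 1.55 times in CEAR and 2.06 times in MKN45. Within library number 1 the level was 3.52 times as high in HER2R as in MKN45, and within number 2 it was 6.36 times as high. The log2 fold change for HER2R against MKN45 was 2.77 without MKN45 library 1 and 1.72 without MKN45 library 2. For CEAR against MKN45 it was 0.64 without MKN45 library 1 and -0.42 without MKN45 library 2, so its sign turned with the library left out. What the number stands for is not given, and its part in these values was not tested.

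**Figure D1:**
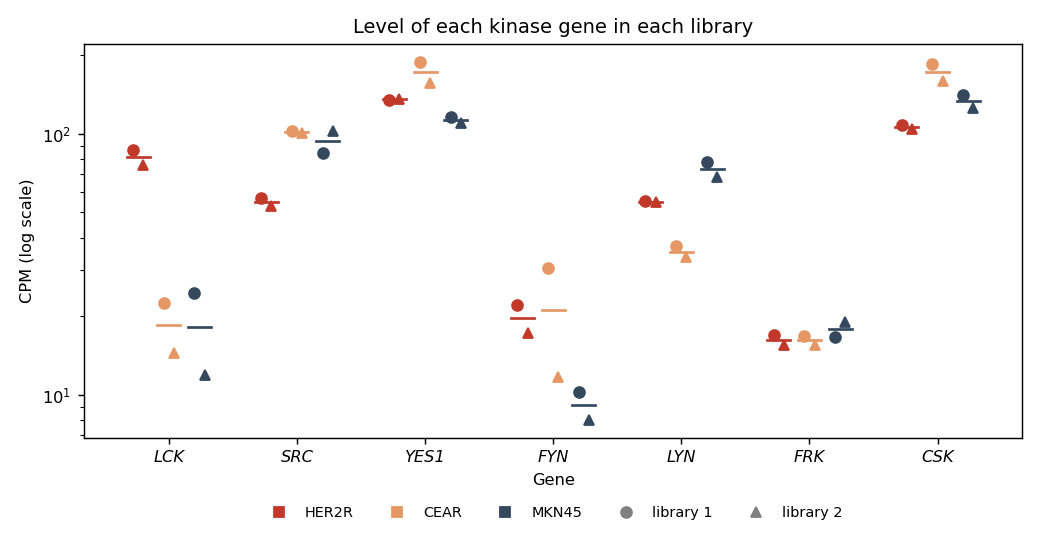
Level of each detected kinase gene in CPM (log axis) in each library, with circles for library 1, triangles for library 2 and a bar at the line mean. LCK sits at 76.1 CPM or more in both HER2R libraries and at 24.6 CPM or less in all others, and SRC is lower in both HER2R libraries than in all others.

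Scaled to merged exon length, the order of the genes shows where LCK stood among the listed kinases, CSK included. In HER2R the order in CPM per kb was YES1 (26.6 ± 0.125), LCK (24.4 ± 2.22), CSK (23.2 ± 0.592), LYN (8.88 ± 0.0713), SRC (8.49 ± 0.458), FYN (2.66 ± 0.445) and FRK (1.23 ± 0.0794). Neighbours in that order did not overlap between libraries, apart from LCK and CSK. In CEAR the order was CSK (37.7 ± 4.02), YES1 (33.8 ± 4.50), SRC (15.7 ± 0.204), LYN (5.72 ± 0.407), LCK (5.54 ± 1.70), FYN (2.86 ± 1.82) and FRK (1.22 ± 0.0739). There CSK overlapped with YES1 and LYN with LCK. In MKN45 the order was CSK (29.1 ± 2.40), YES1 (22.2 ± 0.803), SRC (14.5 ± 1.96), LYN (11.8 ± 1.08), LCK (5.48 ± 2.68), FRK (1.35 ± 0.130) and FYN (1.23 ± 0.213), and only the last 2 overlapped. LCK thus had rank 2 of 8 in HER2R and rank 5 in CEAR and in MKN45. The ranking includes FGR, which had no counts, and CSK, the regulator of the family. CSK stood above LCK in CEAR and MKN45 and below it in HER2R, so part of the shift in rank is a change of place with CSK. Exon lengths came from GENCODE 29 over all annotated transcripts, and a gene that uses short transcripts is understated on this scale.

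Over LCK, SRC, YES1, FYN, LYN and FRK together, LCK made up 34.8% and 32.6% of the summed CPM per kb in HER2R, 9.50% and 7.39% in CEAR, and 12.6% and 6.55% in MKN45. The sum itself was 72.2 ± 3.15 CPM per kb in HER2R, 64.8 ± 8.70 in CEAR and 56.6 ± 2.69 in MKN45. YES1 held the largest share in all 6 libraries, with line means of 36.8% in HER2R, 52.1% in CEAR and 39.3% in MKN45. SRC held 11.8% in HER2R, 24.4% in CEAR and 25.7% in MKN45, and LYN held 12.3% in HER2R, 8.87% in CEAR and 20.9% in MKN45. These shares add to a fixed total, so a larger LCK share lowers the others by construction.

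**Figure D2:**
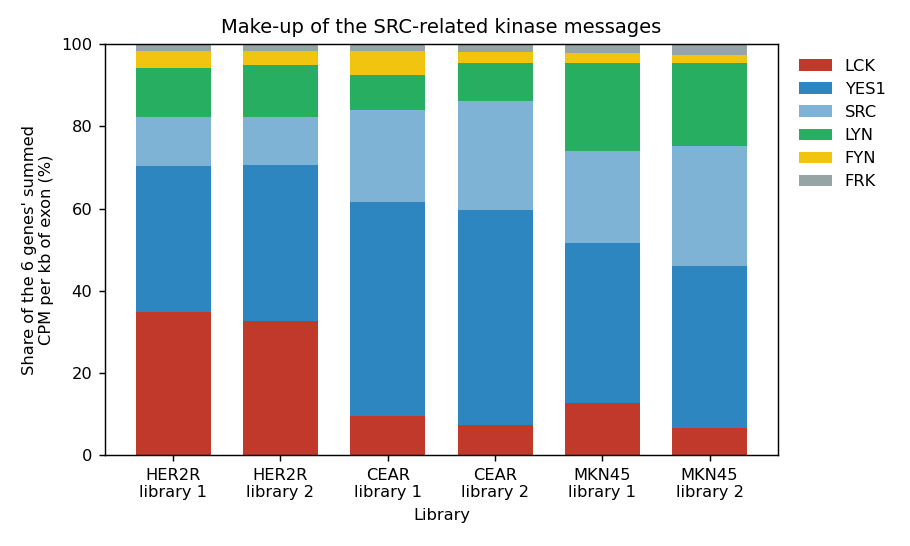
Stacked bars give, for each library, the share of 6 SRC-related kinase genes in their summed CPM per kb of merged exon, in percent. The LCK segment is 34.8% and 32.6% in HER2R and at most 12.6% in the CEAR and MKN45 libraries.

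LCK is best known as a T cell gene, so the libraries were examined for other T cell messages. Of 15 listed T cell markers, 12 were in the table, and CD3D, CD2 and CD8B had 0 counts in every library. CD3E, a chain of the T cell receptor complex, had 1 and 3 counts in HER2R, 1 and 1 in CEAR, and 0 and 1 in MKN45. PTPRC, the CD45 phosphatase carried by all leukocytes, had 0 counts in HER2R and CEAR and 1 count in MKN45. CD4 had 0 and 1 counts in HER2R, 0 and 1 in CEAR and 0 in MKN45, and CD8A had 5 and 11 counts in HER2R, 5 and 7 in CEAR and 2 and 4 in MKN45. Summed over the 12 genes, the list came to 58 and 66 counts in HER2R, 116 and 164 in CEAR and 123 and 161 in MKN45. Most of that sum was LAT, an adaptor of T cell receptor signalling and the only marker of the list that passed the filter. LAT averaged 1.02 ± 0.215 CPM in HER2R, 2.93 ± 0.497 CPM in CEAR and 2.64 ± 0.900 CPM in MKN45. LAT did not pass edgeR's test in any comparison. Its log2 fold change was -1.35 for HER2R against MKN45 and -1.52 for HER2R against CEAR. The replicate block, a fit with the library number as a term, called LAT lower in HER2R against MKN45 (edgeR adjusted p = 0.0199) and against CEAR (edgeR adjusted p = 0.0107). The other 11 markers summed to 12 and 32 counts (0.306 and 0.816 CPM) in HER2R, 9 and 18 (0.217 and 0.404 CPM) in CEAR, and 10 and 17 (0.177 and 0.387 CPM) in MKN45. That sum was higher in HER2R within each library number, and the lines overlapped. CD5, a T cell surface receptor, had 2 and 4 counts in HER2R and 0 in all the others. The B cell list summed to at most 14 counts in a library and the NK cell list to at most 1. Of the myeloid list only CD68, a lysosomal protein, exceeded 7 counts in a library, with 3.21 ± 0.0387 CPM in HER2R, 4.12 ± 2.08 CPM in CEAR and 9.95 ± 7.18 CPM in MKN45. CD68 passed edgeR's test in no comparison, with a log2 fold change of -1.62 for HER2R against MKN45 and -1.25 for CEAR against MKN45. The replicate block called it lower in both, where it called 33.7% and 25.8% of all tested genes. Among the 7 epithelial markers the keratin KRT8 was the most abundant in each line. It had 6827 ± 1233 CPM in HER2R, 4649 ± 596 CPM in CEAR and 5985 ± 728 CPM in MKN45. CDX2 was the scarcest in each line, with 6.59 ± 2.04 CPM in HER2R, 7.43 ± 4.58 CPM in CEAR and 14.7 ± 6.97 CPM in MKN45. Of 7 tested epithelial markers 0 were called in HER2R against MKN45, where 9.74% of all tested genes were called. In CEAR against MKN45 1 was lower, the mucin MUC13 (6.19% of all genes called), and in HER2R against CEAR 2 were higher, MUC13 and the adhesion protein EPCAM (14.1% of all genes called). The replicate block gave 1 higher and 2 lower of the 7 in HER2R against MKN45, 0 and 3 in CEAR against MKN45, and 3 and 1 in HER2R against CEAR, with 33.7%, 25.8% and 38.2% of all tested genes called in these comparisons. The part of these marker values in the LCK level was not tested. In such bulk RNA a change in the number of cells with a message and a change in message per cell cannot be told apart.

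**Figure D3:**
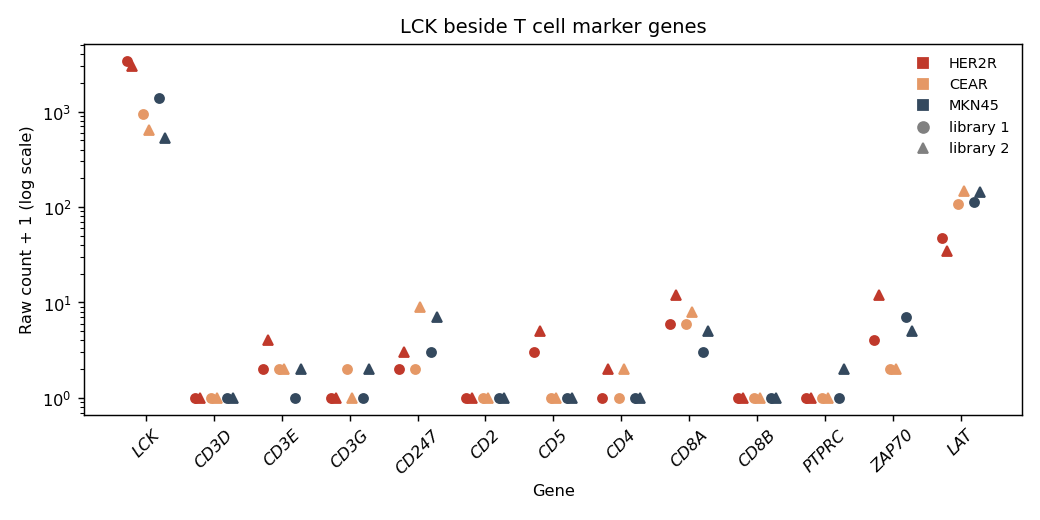
Raw count plus 1 (log axis) of LCK and of 12 T cell marker genes in each library, with circles for library 1 and triangles for library 2. LCK has 526 to 3398 counts, LAT 34 to 146, and each of the other 11 markers at most 11 counts in any library.

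Genes on either side of LCK were measured too. The 3 protein-coding genes upstream are TMEM234, EIF3I (a subunit of the translation initiation factor eIF3) and FAM167B, and the 3 downstream are HDAC1 (a histone deacetylase), MARCKSL1 (a membrane-binding protein related to MARCKS) and TSSK3 (a testis kinase). FAM167B ends 2382 bases before LCK and HDAC1 begins 5920 bases after it. None of the 6 passed edgeR's test in any of the 3 comparisons, where 9.74% of all tested genes were called in HER2R against MKN45, 6.19% in CEAR against MKN45 and 14.1% in HER2R against CEAR. HDAC1 had 470.5 ± 74.5 CPM in HER2R, 316.8 ± 7.68 CPM in CEAR and 371.6 ± 10.1 CPM in MKN45. Its log2 fold change was 0.34 for HER2R against MKN45 (95% interval -0.032 to 0.71, edgeR adjusted p = 0.207). TSSK3 was nearly silent, with 20 and 10 counts in HER2R, 7 and 2 in CEAR and 3 and 2 in MKN45 (log2 fold change 2.87 for HER2R against MKN45). FAM167B had 13 and 13 counts in HER2R, 4 and 5 in CEAR and 8 and 14 in MKN45. With the replicate block TSSK3 was called in HER2R against MKN45, where the block called 33.7% of all tested genes. TSSK3 passed the filter on low counts only through its HER2R libraries, where it was highest, so its calls are a description and are given with no p-value. In HER2R against CEAR the block called EIF3I (0.43, edgeR adjusted p = 0.0114), HDAC1 (0.56, edgeR adjusted p = 0.00806) and TSSK3 (1.83). Over all tested genes it called 38.2% in that comparison. In CEAR against MKN45 the block called 0 of the 6 neighbours, beside 25.8% of all tested genes.

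**Figure D4:**
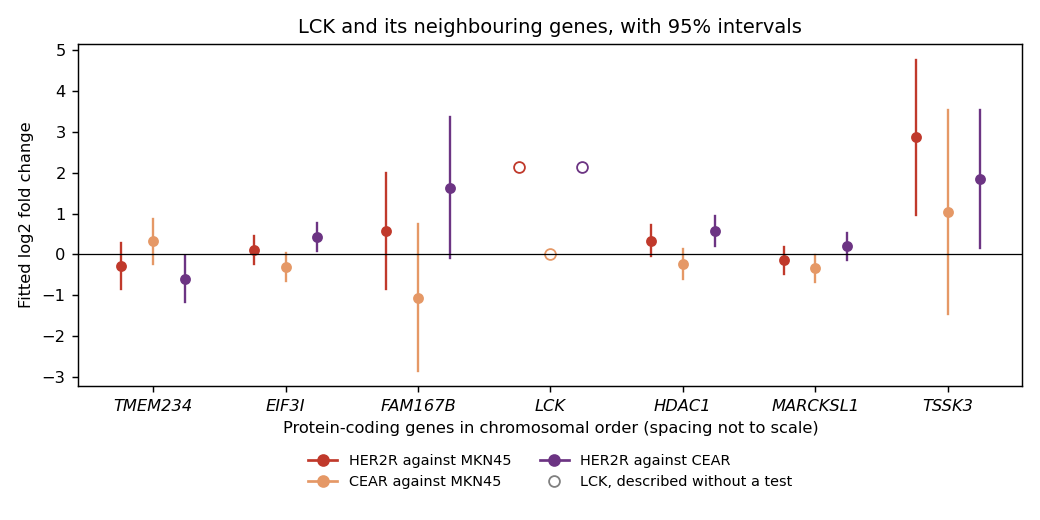
Fitted log2 fold change of LCK and the 3 protein-coding genes on each side of it, in chromosomal order with spacing not to scale, for 3 comparisons. Bars are 95% intervals, and LCK (open circles) is described with no test at 2.15, 0.011 and 2.14.

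The genes most like LCK over the 6 libraries were WDR43 (Pearson r = 0.999), EBNA1BP2 (0.998), AHDC1 (0.996), ARG2 (0.996) and TBC1D20 (0.996), by log2 CPM among 10441 genes at a mean of 5 CPM or more. These libraries share 3 lines and 2 library numbers, and of the genes ranked 259 had r over 0.95 and 19 had r over 0.99. ARG2, a mitochondrial arginase, had 26.3 and 21.7 CPM in HER2R, 9.30 and 6.16 CPM in CEAR, and 10.3 and 5.05 CPM in MKN45. WDR43, a ribosome assembly factor, had 159.6 ± 1.81 CPM in HER2R, 101 ± 9.70 CPM in CEAR and 98.9 ± 13.0 CPM in MKN45. EBNA1BP2 had 125.7 ± 0.941 CPM in HER2R, 98.5 ± 5.31 CPM in CEAR and 99.2 ± 8.94 CPM in MKN45. AHDC1 averaged 29.5 ± 0.169, 20.2 ± 1.55 and 20.2 ± 3.11 CPM in the same order, and TBC1D20 30.9 ± 1.61, 22.7 ± 1.33 and 22.4 ± 2.47 CPM. A high r gives a like pattern over the libraries and not a change as large as that of LCK. Within the kinase set the r with LCK was -0.96 for SRC, -0.67 for CSK, -0.37 for FRK, 0.028 for YES1, 0.14 for LYN and 0.55 for FYN, given as a description. Genes with strongly negative r were not counted, so the value of SRC has no share over all genes beside it.

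SRC, the founding kinase of the family and a partner of focal adhesions, was lower in HER2R. It had 57.0 and 52.8 CPM in HER2R, 102 and 100.4 CPM in CEAR, and 84.7 and 102.6 CPM in MKN45. Both HER2R libraries lay below all the others, and the CEAR libraries lay inside the MKN45 range. For HER2R against MKN45 the log2 fold change was -0.77 (SE 0.141, edgeR adjusted p = 0.0250), and for HER2R against CEAR it was -0.88 (SE 0.141, edgeR adjusted p = 0.0160). For CEAR against MKN45 it was 0.11 (95% interval -0.22 to 0.45, edgeR adjusted p = 0.693). The call against MKN45 ended without HER2R library 1 (edgeR adjusted p = 0.129), HER2R library 2 (0.149) or MKN45 library 2 (0.0943), with the log2 fold change at -0.90 to -0.63 over all fits that leave out a library.

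YES1, a close relative of SRC, was the most abundant SRC-family message per length in every line. It had 135 and 136 CPM in HER2R, 188 and 156 CPM in CEAR, and 116 and 110.4 CPM in MKN45. Both CEAR libraries lay above all the others, and both HER2R libraries lay above MKN45. For CEAR against MKN45 its log2 fold change was 0.60 (SE 0.137) and missed the test at edgeR adjusted p = 0.0551, and with the replicate block it was 0.60 and passed (edgeR adjusted p = 0.00521). For HER2R against MKN45 it was 0.26 (95% interval -0.070 to 0.59, edgeR adjusted p = 0.271). HER2R against CEAR gave -0.35 (edgeR adjusted p = 0.139, and 0.0364 with the block).

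FYN, expressed in many tissues and alongside LCK in T cells, varied widely within CEAR. It had 22.0 and 17.3 CPM in HER2R, 30.7 and 11.7 CPM in CEAR, and 10.3 and 8.03 CPM in MKN45. Both resistant lines lay above MKN45 in every library, but CEAR library 1 was 2.63 times as high as CEAR library 2. Neither difference from MKN45 passed the test, with a log2 fold change of 1.10 for HER2R (SE 0.440, edgeR adjusted p = 0.160). For CEAR it was 1.21 (SE 0.439, edgeR adjusted p = 0.163). Both passed with the replicate block (edgeR adjusted p = 0.0117 in HER2R and 0.0143 in CEAR). The CEAR value was 0.35 without CEAR library 1 and 1.75 without CEAR library 2. These comparisons share the MKN45 libraries.

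LYN was highest in MKN45 and lowest in CEAR. It had 55.2 and 54.6 CPM in HER2R, 37.2 and 33.6 CPM in CEAR, and 78.0 and 68.5 CPM in MKN45, so that no line overlapped another. It fell in CEAR against MKN45 with a log2 fold change of -1.05 (SE 0.136, edgeR adjusted p = 0.0124), and it was higher in HER2R than in CEAR by 0.63 (SE 0.135, edgeR adjusted p = 0.0309). For HER2R against MKN45 it was -0.42 (95% interval -0.74 to -0.094, edgeR adjusted p = 0.101), and the replicate block called that difference as well (edgeR adjusted p = 0.0170). The call in CEAR against MKN45 ended without CEAR library 1 (edgeR adjusted p = 0.0519), CEAR library 2 (0.0757) or MKN45 library 1 (0.0542), while its log2 fold change stayed at -1.14 to -0.95.

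FRK overlapped between all lines. It had 17.0 and 15.5 CPM in HER2R, 16.9 and 15.5 CPM in CEAR, and 16.7 and 19.1 CPM in MKN45. Its log2 fold change was -0.13 for HER2R against MKN45 (95% interval -0.54 to 0.27) and -0.14 for CEAR against MKN45 (95% interval -0.55 to 0.26), with edgeR adjusted p = 0.651 for HER2R and 0.679 for CEAR. HER2R against CEAR gave 0.0093 (95% interval -0.40 to 0.42, edgeR adjusted p = 0.976).

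CSK, which phosphorylates the inhibitory tail tyrosine of the family, differed between the resistant lines. It had 108 and 104 CPM in HER2R, 185 and 159 CPM in CEAR, and 141 and 125 CPM in MKN45. All HER2R values lay below all MKN45 values, and all CEAR values above them. HER2R was lower than CEAR by a log2 fold change of -0.70 (SE 0.137, edgeR adjusted p = 0.0266). Against MKN45 the values were -0.33 in HER2R (95% interval -0.65 to 0.0023, edgeR adjusted p = 0.178) and 0.37 in CEAR (95% interval 0.044 to 0.70, edgeR adjusted p = 0.167), and neither passed. With the replicate block both did (edgeR adjusted p = 0.0376 in HER2R and 0.0274 in CEAR).

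**Figure D5:**
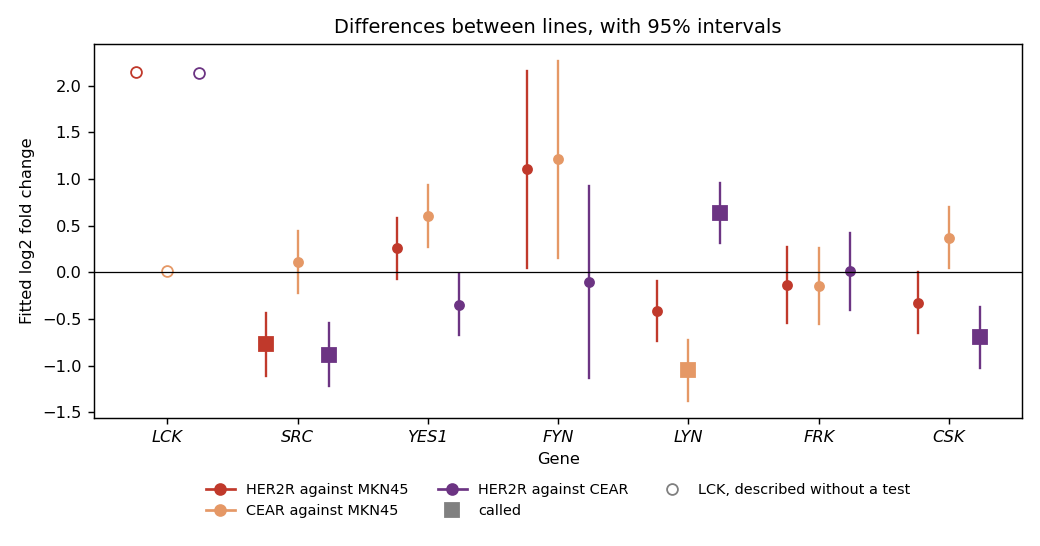
Fitted log2 fold change of each kinase gene in 3 comparisons, with 95% intervals and squares where edgeR's adjusted p was under 0.05. SRC is called lower in HER2R against both other lines, LYN is called in CEAR against MKN45 and between the resistant lines, CSK is called between the resistant lines, and LCK (open circles) has no test.

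Among the 6 tested kinases other than LCK, 0 rose, 1 fell (SRC) and 5 did not pass in HER2R against MKN45, where 9.74% of all tested genes were called, 4.89% higher and 4.85% lower. In CEAR against MKN45 0 rose, 1 fell (LYN) and 5 did not pass, with 6.19% of all genes called, 2.57% higher and 3.62% lower. In HER2R against CEAR 1 was higher (LYN), 2 were lower (SRC and CSK) and 3 did not pass, with 14.1% of all genes called, 7.32% higher and 6.75% lower. Their median log2 fold changes were -0.23, 0.24 and -0.23 in these comparisons, beside -0.017, -0.00019 and 0 over all tested genes. The replicate block called 4 of the 6 in HER2R against MKN45 and 4 in CEAR against MKN45, but it also called 5040 (33.7%) and 3861 (25.8%) of all tested genes. In HER2R against CEAR the block called SRC, YES1, LYN and CSK, beside 5717 (38.2%) of all tested genes. At so few genes these counts are a description and not a property of the set. Libraries did not overlap for 5 of the 6 in HER2R against MKN45, 4 in CEAR against MKN45 and 4 in HER2R against CEAR. Over all tested genes that share was 57.1%, 50.6% and 61.4% in the same comparisons.

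The regulators listed are enzymes and adaptors that switch, anchor or fold SRC-family kinases. Of 22 tested, 0 rose, 1 fell and 21 did not pass in HER2R against MKN45 (median log2 fold change -0.063), where 9.74% of all tested genes were called. In CEAR against MKN45 0 were called (median 0.055), against 6.19% of all genes. The one that fell was PTPN1, the phosphatase PTP1B, which can remove the inhibitory phosphate of SRC. It averaged 54.7 ± 2.53 CPM in HER2R and 84.4 ± 6.60 CPM in MKN45 (log2 fold change -0.63, edgeR adjusted p = 0.0382). That call ended whichever library was left out (edgeR adjusted p up to 0.203). In HER2R against CEAR 0 were higher and 4 lower (median -0.079), where 7.32% of all genes were higher and 6.75% lower. These were the chaperone HSP90AA1 (1316 ± 39.1 CPM in HER2R and 2314 ± 167 CPM in CEAR, log2 fold change -0.81, edgeR adjusted p = 0.0436), the palmitoyltransferase ZDHHC21 (-0.74, edgeR adjusted p = 0.0364), PTPN1 (-0.66, edgeR adjusted p = 0.0287) and ZDHHC5, also a palmitoyltransferase (-0.49, edgeR adjusted p = 0.0442). ZDHHC5 was added to the text after its value was seen. For the 22 regulators the replicate block gave 3 higher and 6 lower in HER2R against MKN45, 2 and 2 in CEAR against MKN45, and 2 and 4 in HER2R against CEAR, where the block called 33.7%, 25.8% and 38.2% of all tested genes.

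Among substrates and adaptors of the kinases, CAV1 had the largest called change. Of 25 tested, 4 rose, 2 fell and 19 did not pass in HER2R against MKN45 (median log2 fold change 0.040), where 4.89% of all tested genes were higher and 4.85% lower. CAV1, the coat protein of caveolae and an early known SRC substrate, had 165.9 ± 11.2 CPM in HER2R, 69.7 ± 14.6 CPM in CEAR and 23.0 ± 7.98 CPM in MKN45. It rose in HER2R by a log2 fold change of 2.85 (edgeR adjusted p = 0.00420) and in CEAR by 1.60 (edgeR adjusted p = 0.0231), 2 comparisons that share MKN45, and it was higher in HER2R than in CEAR (1.25, edgeR adjusted p = 0.0298). The rise in HER2R stayed called whichever of the 6 libraries was left out. CDCP1, a transmembrane glycoprotein phosphorylated by SRC, averaged 228 ± 1.34 CPM in HER2R and 129 ± 11.6 CPM in MKN45 (log2 fold change 0.82, edgeR adjusted p = 0.0202). ASAP1, a GTPase-activating protein of ARF proteins, rose by 0.72 (edgeR adjusted p = 0.0278). PTK2, the focal adhesion kinase that SRC partners, rose by 0.57 (edgeR adjusted p = 0.0429) and was added after its value was seen. The PTK2 call ended whichever library was left out (edgeR adjusted p up to 0.212).

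The adaptor SKAP2 and PIK3R1, the regulatory subunit of PI3-kinase, fell in both resistant lines against the same MKN45 libraries. SKAP2 averaged 67.2 ± 0.611 CPM in HER2R, 64.2 ± 9.90 CPM in CEAR and 122 ± 11.2 CPM in MKN45, with a log2 fold change of -0.86 in HER2R (edgeR adjusted p = 0.0232) and -0.93 in CEAR (edgeR adjusted p = 0.0223). PIK3R1 averaged 97.0 ± 2.37 CPM in HER2R, 96.9 ± 11.2 CPM in CEAR and 174 ± 7.52 CPM in MKN45, with -0.84 in HER2R (edgeR adjusted p = 0.0173) and -0.84 in CEAR (edgeR adjusted p = 0.0199). In CEAR against MKN45 1 rose (CAV1), 3 fell and 21 did not pass (median -0.023), where 2.57% of all genes were higher and 3.62% lower, and the third to fall was EPS8, an actin-binding protein (-0.82, edgeR adjusted p = 0.0192). In HER2R against CEAR 2 were higher, 1 lower and 22 not called (median 0.25), where 7.32% of all genes were higher and 6.75% lower. EPS8 was higher (0.83, edgeR adjusted p = 0.0144), and PLCG1, a phospholipase C activated by tyrosine kinases, was lower (-0.73, edgeR adjusted p = 0.0375). The replicate block gave 5 higher and 5 lower of the 25 substrates in HER2R against MKN45, 2 and 5 in CEAR against MKN45, and 8 and 2 in HER2R against CEAR. Over all tested genes the block called 16.2% higher and 17.5% lower in HER2R against MKN45, 12.0% and 13.8% in CEAR against MKN45, and 19.7% and 18.6% in HER2R against CEAR.

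The remaining list held other cytoplasmic tyrosine kinases. Of 14 tested, 1 rose, 0 fell and 13 did not pass in HER2R against MKN45 (median log2 fold change -0.0089), where 9.74% of all tested genes were called. In CEAR against MKN45 0 were called (median 0.13), against 6.19% of all genes, and in HER2R against CEAR 1 was higher and 0 lower (median 0.19), against 14.1%. The one that rose was TXK, a TEC-family kinase best known from T cells, which was scarce at 1.16 ± 0.0911 CPM in HER2R, 0.176 ± 0.0580 CPM in CEAR and 0.154 ± 0.168 CPM in MKN45. It had 43 and 48 counts in HER2R, 9 and 6 in CEAR and 2 and 12 in MKN45. TXK thus passed the filter on low counts only through its HER2R libraries, where it was highest. Its calls, the only ones of this list without the block, are a description and are given with no p-value. They stay in the counts of calls given here. TXK gave a log2 fold change of 3.02 for HER2R against MKN45 and 2.71 for HER2R against CEAR. Of 7 alternatives that keep every library, 3 called TXK in HER2R against MKN45 and 4 in HER2R against CEAR. ZAP70, which follows LCK in T cell receptor signalling, had 3 and 11 counts in HER2R, 1 and 1 in CEAR and 6 and 4 in MKN45. Of the 14 other kinases the replicate block gave 5 higher and 3 lower in HER2R against MKN45, 0 and 3 in CEAR against MKN45, and 1 and 2 in HER2R against CEAR, beside the same all-gene shares. Of 23 calls among the listed genes other than the kinases described first, epithelial markers included, 1 (CAV1 in HER2R against MKN45) held whichever library was left out and 9 held under no such fit (edgeR adjusted p up to 0.212). Those 9 were PTPN1, PTK2 and TXK in HER2R against MKN45, SKAP2 and PIK3R1 in CEAR against MKN45, and HSP90AA1, ZDHHC5, ZDHHC21 and PLCG1 in HER2R against CEAR.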

How the data were processed

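Total RNA of HER2R, CEAR and MKN45 was made into stranded libraries after ribosomal RNA depletion, per the labels' protocols. The deposited values are raw counts per gene symbol, whole numbers in all 6 libraries, and the submitters' processing notes name GRCh38 and limma. Which aligner, counter and gene models were used is not given in the sources used here. Testing used edgeR 4.0.16 (R 4.3.3), after filterByExpr by line kept 14958 of 29744 symbols, with TMM factors and 1 quasi-likelihood fit (legacy off) with a term per line, 3 residual and 3.51 prior degrees of freedom. P-values were adjusted by Benjamini-Hochberg over all tested genes and called under 0.05. Each SE was taken as the absolute log2 fold change divided by root F. The methods were also tested on simulated data. Chi-square values of 60.7 to 128 per degree of freedom between libraries of a line put all of them beyond sampling noise.

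The members and gene lists were chosen with earlier results of these data known. Named were the members, BLK, the LCK neighbours, the 5 genes most like LCK, and up to 3 called genes of each list per direction and comparison with the largest log2 fold change. Markers are a check of cell types. Some listed genes are not reported here. The differences of library 2 minus library 1 correlated between lines at 0.355 to 0.545 over all tested genes. A fit that takes the labels' numbers to pair the libraries, the replicate block, is therefore given beside results it changes. The fit behind all other calls has a term per line only and takes no account of such pairing. What the numbers stand for is not given, so which fit is the better one was not settled. Other alternatives were RLE size factors, no filter, a filter at 1 CPM in 2 libraries, DESeq2 1.42.0, limma-voom 3.58.1, the compared lines alone and leaving out each library. Sequences came from RefSeq (GRCh38.p14) and exon lengths from GENCODE 29.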

Additional observations from a re-analysis of the deposited data

Results flagged for a closer look

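The effects of SRC, LYN and CSK differed between the resistant lines, by the test of HER2R against CEAR itself, which is the difference of their changes against MKN45. SRC gave a log2 fold change of -0.88 (edgeR adjusted p = 0.0160), LYN gave 0.63 (edgeR adjusted p = 0.0309) and CSK gave -0.70 (edgeR adjusted p = 0.0266), each with both HER2R libraries on the same side of both CEAR libraries. All 3 calls ended without any 1 of the HER2R or CEAR libraries (edgeR adjusted p up to 0.157) and held without either MKN45 library.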

How the results depend on the processing

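LCK kept a log2 fold change of 2.13 to 2.23 for HER2R against MKN45 under all 7 alternatives that keep every library. Of the 6 tested kinases, HER2R against MKN45 called 1, against 4 with the replicate block, 2 with the compared lines only, and 0 to 2 with a library left out. CEAR against MKN45 called 1, against 2 with the filter at 1 CPM, 3 with DESeq2, 4 with the block, and 0 to 1 with a library left out. HER2R against CEAR called 3, and the block called YES1 as well. These 3 calls depended on which library was left out, as given above.

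Over all genes, HER2R against MKN45 called 1457, DESeq2 2810, the replicate block 5040, and 189 to 1136 with a library left out. CEAR against MKN45 called 926, DESeq2 2098, the block 3861, the compared lines only 405, and 253 to 428 with a library left out. HER2R against CEAR called 2105, DESeq2 3432, the block 5717, and 103 to 1856 with a library left out. Leaving out a library leaves fewer residual degrees of freedom, and takes the spread of a line with 1 library from the remaining lines.

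Among uncalled differences, SRC in CEAR against MKN45 turned to -0.012 without MKN45 library 1 (0.25 without MKN45 library 2). FYN in HER2R against CEAR turned to 0.057 with limma-voom, and ran from -0.65 to 0.75 with a library left out, positive without HER2R library 2 or CEAR library 1. FRK there turned to -0.0064 with no filter, and ran from -0.063 to 0.073 with a library left out, negative without HER2R library 1 or CEAR library 2. The cause was not tested.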
